A study of Saccharomyces cerevisiae with 104 samples.

Results

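The COS genes are a family of closely similar genes that lie close to the chromosome ends of budding yeast (Saccharomyces cerevisiae), and their messenger RNA was followed across strains with point mutations in histone H3 or histone H4. The members were the count-table entries for COS1 (YNL336W), COS2 (YBR302C), COS3 (YML132W), COS4 (YFL062W), COS5 (YJR161C), COS6 (YGR295C), COS7 (YDL248W), COS8 (YHL048W), COS10 (YNR075W) and COS12 (YGL263W). They are 10 of the 7122 genes in the table, and all 10 were found. Cos proteins span membranes of the endosome and vacuole and help to gather other membrane proteins for sorting into multivesicular bodies, the vesicles that carry cargo into the vacuole for breakdown. Genes near telomeres are known to be held at low levels by Sir proteins, which bind the tails of histones H3 and H4, and copies of a subtelomeric family share so much sequence that many of their reads fit several places in the genome. The roles of the individual copies are less well known than that of the family.

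RNA was measured with QuantSeq, a kit that sequences transcripts from their 3′ ends, in 29 mutants and in wild type (WT), all in the strain background MSY196, which is based on S288C. Mutant names give the histone and then the exchange, and H3K36Q thus carries glutamine in place of lysine 36 of H3. Among the 22 H3 mutants were H3T3A, H3T3D, H3K4Q, H3K4R, H3K18A, H3S31D, H3K36A, H3K36Q, H3K36R, H3K37Q, H3K37R and H3R40K in the tail or at its base, and H3S86A, H3S86D, H3K115A, H3K115Q, H3K115R, H3K121A, H3K121Q, H3K121R, H3K122A and H3K122Q in the core of the nucleosome. The 7 H4 mutants were H4K44Q, H4K44R, H4R55A, H4K91Q, H4K91R, H4Y88A and H4Y88F. The 90 libraries comprised 2 each of H3T3A and H3T3D, 4 of H4Y88A, 3 each of the other 26 mutants and 4 of WT. The labels do not say whether libraries of a genotype came from separate cultures, so the p-values measure only the spread between these libraries, which may be technical.

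Libraries held 768398 to 3143681 counts in genes (median 1507838.5), except H3K4R S55 with 24010, where 1 count equals 36 CPM (counts per 1e+06 counts in genes, after scaling). The S numbers are the sample numbers in the column names, and they were divided here into 3 runs of 44, 22 and 24 libraries, which the labels do not name. The boundaries were drawn from the column names, at S94, where the list of H3 and H4 mutants starts over, and at S118, where a further list of mutants begins. The third run holds WT S133 and every library of H3T3A, H3T3D, H3K18A, H3S31D, H3K37Q, H3K37R, H3R40K and H4R55A. In those 8 mutants the mutation can be told apart from the run only through WT S133 and H4Y88A S132. Reads placed at several sites were counted apart from the genes, and they were 8.05 ± 0.174 times the gene counts in H3T3D (SD, n = 2), 1.41 ± 0.186 times in H3R40K (SD, n = 3) and 3.72 ± 0.961 times in WT (SD, n = 4), the first 2 being the highest and the lowest of the 30 genotypes. Genes of the alpha mating type were abundant (SAG1 at 230 to 1920 CPM and MF(ALPHA)1 at 216 to 1080 CPM) and those of the a type were low (STE2, median 3.92 CPM). The labels name no mating type.

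Reads that could be placed at a single site were very unequal among the 10 copies. COS8, on the left arm of chromosome VIII (bases 6401 to 7546 of the R64 annotation), had 4129 counts over the 90 libraries, 38.2% of the 10799 counts of the family. COS6, on the right arm of chromosome VII (1081584 to 1082729), had 3268 counts or 30.3%. COS1 (chromosome XIV, 8330 to 9475) had 1445 counts, COS12 (chromosome VII, 2790 to 3932) had 1228 and COS10 (chromosome XIV, 779916 to 781040) had 543. These 5 copies held 98.3% of the family's counts. The 10 copies are annotated with nearly the same length, 1125 to 1152 bases, and what sets the order of their counts was not tested.

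The 5 sparse copies cannot be compared between genotypes at this depth. COS2 (chromosome II, 810340 to 811479) and COS3 (chromosome XIII, 7244 to 8383) had 3 counts each in all, a pooled level of 0.0217 CPM for either gene (exact 95% Poisson interval 0.00448 to 0.0635 CPM). COS5 (chromosome X, 742848 to 743999) had 15 counts and COS7 (chromosome IV, 1802 to 2953) had 46. COS4 (chromosome VI, 6426 to 7565) was the fullest of them, at a pooled level of 0.862 CPM (0.714 to 1.03 CPM). In WT these genes had 0 counts for COS2, COS3 and COS5, and 3 each for COS4 and COS7. The highest count of COS4 in a library was 7, in H3K115A S63, and that of COS7 was 6, in H3K122Q S62 and also in H3K37R S123. A count of 3 in a library corresponds to 0.954 to 3.9 CPM outside H3K4R S55, and intervals of this kind cover counting error only. Whether these copies are silent or only share their 3′ ends with another copy was not tested.

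**Figure D1:**
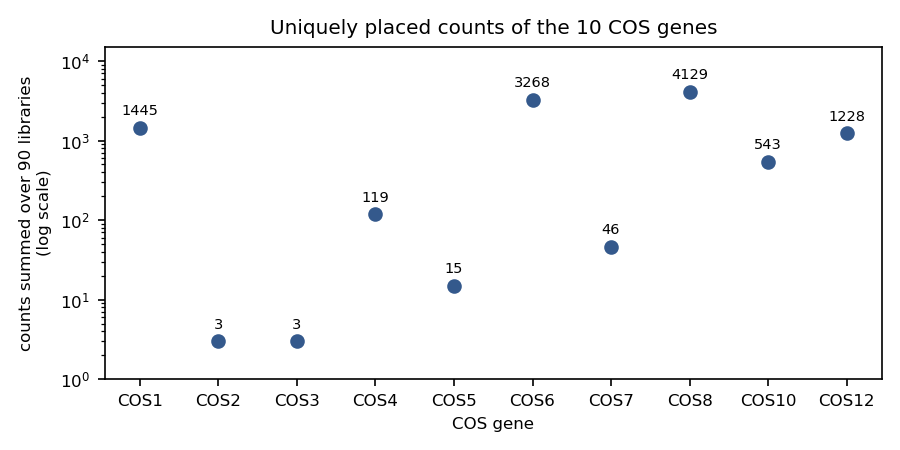
Counts of each COS gene summed over the 90 libraries, on a log axis, with the sum written above each point. COS8, COS6, COS1, COS12 and COS10 lie between 543 and 4129 counts, and COS2 and COS3, with 3 each, are the lowest of the other 5.

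Of the 5 copies with enough counts to be tested, COS12 moved down in several H3 mutants and up in H4R55A, COS1 moved up in several mutants, COS8 moved once, and COS6 and COS10 gave no call. In edgeR's quasi-likelihood fit over all 90 libraries, with Benjamini-Hochberg adjustment over the 5822 genes tested and a call at an adjusted p under 0.05, 10 of the 145 pairs of a tested COS gene and a mutant were called against WT. That is 6.9%, against 1.4% of all pairs of a gene and a mutant. The calls fell in 8 mutants, with 4 higher (0.856% of all pairs were called higher) and 6 lower (0.548% of all pairs were called lower). The libraries of mutant and WT did not overlap in 43 pairs, 29.7%, against 9.87% over all genes, and 38 pairs had an unadjusted p under 0.05, 26.2% against 11.5%. With only the libraries of the mutant and of WT in each fit, 3 of the 10 calls remained, those of COS12 in H3T3D, H3S31D and H3R40K. All 29 comparisons use the same 4 WT libraries, so the calls of a gene in different mutants are not independent. COS10 entered the test because 11 libraries reached 6.63 CPM, the level the filter asked for, against 55 for COS12, 77 for COS1, 89 for COS6 and 90 for COS8.

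**Figure D2:**
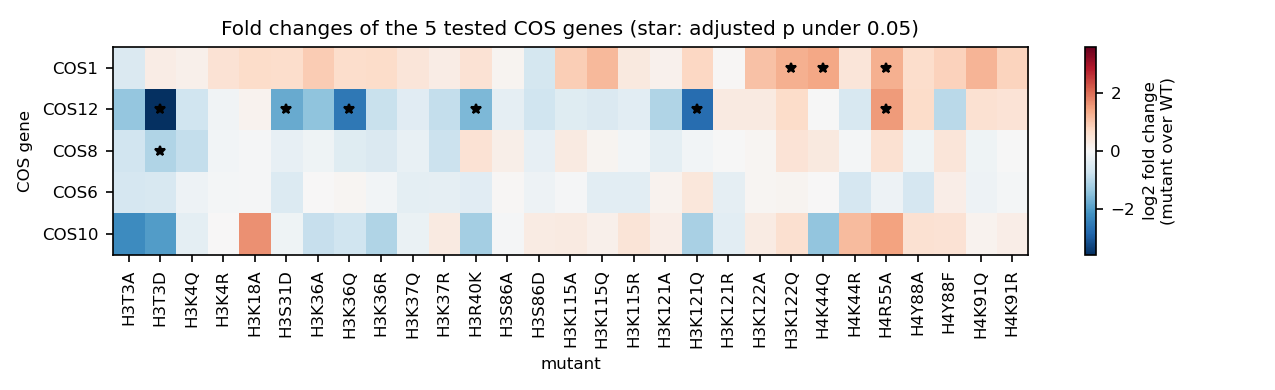
Log2 fold change of each tested COS gene (from top to bottom COS1, COS12, COS8, COS6, COS10) in each of the 29 mutants over WT, in color, with a star where the adjusted p was under 0.05. The 6 stars of COS12 range from -3.58 in H3T3D to 1.52 in H4R55A, the 3 of COS1 are all increases, and COS8 has 1, in H3T3D.

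COS12 was the most variable copy. Mutant means spanned 0.799 CPM in H3T3D to 30.7 CPM in H4R55A, a ratio of 38.5, and the WT libraries stood at 11.7, 13.6, 9.61 and 8.02 CPM. A test of any difference among the 30 genotypes ranked COS12 at 22 of 5822 genes (edgeR, adjusted p = 6.34e-11), where 52.7% of all genes passed. COS12 was called in 6 mutants, and 16 genes in all were called in at least as many.

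The lowest COS12 levels were in H3T3D, with aspartate in place of threonine 3 in the tail of H3. Its libraries had 0.998 and 0.6 CPM (2 counts and 1 count), against 8.02 to 13.6 CPM in WT. The ratio of the pooled levels, H3T3D over WT, was 0.0774, with an exact 95% counting interval of 0.0156 to 0.234. Such an interval leaves out the spread between libraries. The fitted log2 fold change, which at such counts depends on the prior, was -3.58 (edgeR adjusted p = 0.000634, with 3.28% of all genes called lower). H3T3A, with alanine at the same residue, had 4.59 and 3.33 CPM, also below every WT library, but its log2 fold change of -1.38 was not called (adjusted p = 0.179). The difference between the substitutions, 2.2 on the log2 scale for H3T3A over H3T3D, was not called either (adjusted p = 1.0).

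In H3K36Q, where the lysine methylated by Set2 is replaced by glutamine, COS12 had 1.11, 1.64 and 2.42 CPM. The 3 libraries lay far below the WT range, and the log2 fold change was -2.58 ± 0.54 (approximate SE, edgeR adjusted p = 0.00587, with 0.172% of all genes called lower). This call was lost without H3K36Q S53 (adjusted p = 0.107). H3K36A had 5.01, 2.61 and 3.77 CPM, likewise without overlap with WT, at a log2 fold change of -1.44 (adjusted p = 0.0934). H3K36R was split, with 14.8 CPM in S51 against 1.7 and 0.56 CPM in S52 and S95. Its log2 fold change was -0.8 with the 3 libraries (adjusted p = 1.0) and -3.28 without S51 (adjusted p = 0.00193, a ratio of pooled levels of 0.096 with a counting interval of 0.0194 to 0.291, H3K36R over WT). The 3 substitutions of lysine 36 were all below WT in most libraries, except that H3K36R S51 lay above the highest WT library of 13.6 CPM.

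H3K121Q was split as well. COS12 had 0 counts in S79 and in S80, and 5.05 CPM (5 counts) in S110, against 8.02 to 13.6 CPM in WT. The log2 fold change was -2.73 ± 0.60 (edgeR adjusted p = 0.00995, with 0.275% of all genes called lower), and the call was lost without S79 (-2.21, adjusted p = 0.321) or without S80 (-2.05, adjusted p = 0.199). Without S110 the gene was at 0, which at 3 counts over the other 2 libraries is at least 8.11-fold lower than WT. S79 and S80 belong to the first run of sample numbers and S110 to the second. H3K121A had 6.88, 4.18 and 3.34 CPM, below all of WT, with a log2 fold change of -1.08 that was not called (adjusted p = 0.552), whereas H3K121R had 10.9, 17.2 and 12.6 CPM and overlapped WT.

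In H3S31D and H3R40K, both at the base of the H3 tail, COS12 was lower by a smaller amount. H3S31D had 2.96, 2.4 and 3.65 CPM (log2 fold change -1.81 ± 0.49, edgeR adjusted p = 0.028, 3.14% of all genes called lower). H3R40K had 4.13, 2.58 and 3.59 CPM (log2 fold change -1.63 ± 0.43, adjusted p = 0.00947, 4.28% of all genes called lower). No library of either mutant reached the lowest of WT. Both mutants lie wholly in the third run of libraries, and with the run as a covariate their adjusted p was 0.184 in H3S31D and 0.0611 in H3R40K, at log2 fold changes of -1.64 and -1.45. The calls were also lost without H3R40K S137, without any of the 3 libraries of H3S31D and, for H3S31D, without WT S46.

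H4R55A, with alanine in place of arginine 55 of H4, was the only mutant in which COS12 was called higher. It had 32.9, 32 and 27.3 CPM, against 11.7, 13.6, 9.61 and 8.02 CPM in WT. Every H4R55A library lay above every WT library and above every library of every other mutant except H3K4R S55. The log2 fold change was 1.52 ± 0.36 (edgeR adjusted p = 0.0195, with 0.481% of all genes called higher), and 1.7 with the run of libraries as a covariate, where it was no longer called (adjusted p = 0.105). The call was lost without H4R55A S125 or without WT S81.

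**Figure D3:**
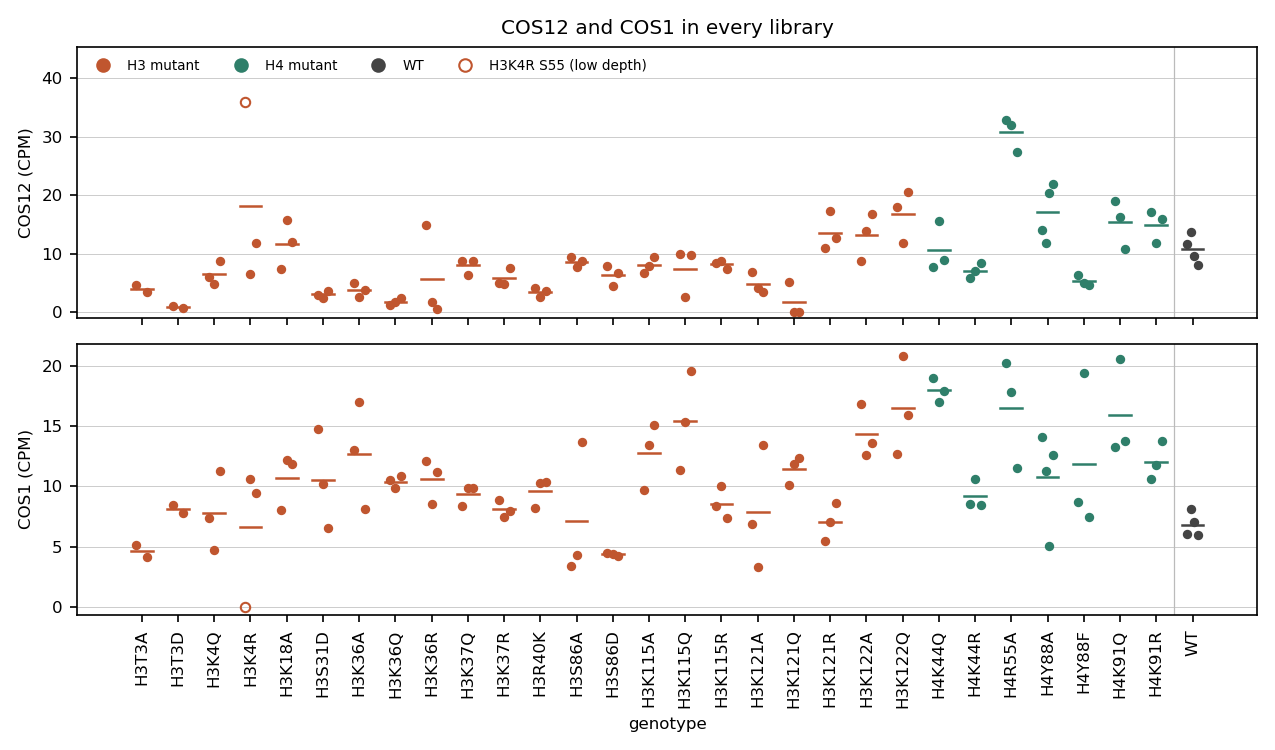
CPM of COS12 (top) and COS1 (bottom) in every library of the 29 mutants, ordered by residue, and of WT at the right. Bars are genotype means, and the open circle is H3K4R S55, in which 1 count equals 36 CPM. COS12 lies under the lowest WT library of 8.02 CPM in all libraries of 11 mutants. Among them are H3T3A, H3T3D, H3S31D, H3K36A, H3K36Q, H3R40K, H3K121Q and H4Y88F. COS1 lies above the highest WT library of 8.15 CPM in all libraries of H4K44Q, H4R55A and H3K122Q.

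COS1 went the other way, with a fold change above 1 in 27 of 29 mutants. All of these are set against the same WT libraries, and the mean of the 29 mutants was not called against WT (below). In 15 mutants every COS1 library lay above every WT library. Over all genes, 9.87% of pairs of a gene and a mutant did not overlap, in either direction. H4K44Q stood highest, with 19.0, 17 and 17.9 CPM, against 6.1, 8.15, 7.08 and 6.02 CPM in WT. The groups were far apart, at a log2 fold change of 1.40 ± 0.30 (edgeR adjusted p = 0.00611, 0.584% of all genes called higher). This call remained without each library in turn. The genotypes with a lower mean than WT were H3S86D, H3T3A and H3K4R, and H3K4R was lower through S55, without which it averaged 10 CPM.

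H3K122Q and H4R55A were the other mutants with a COS1 call. H3K122Q, a substitution at the nucleosome dyad, had 12.7, 20.8 and 15.9 CPM (log2 fold change 1.28 ± 0.31, edgeR adjusted p = 0.0266, 0.24% of all genes called higher). H4R55A had 20.2, 17.8 and 11.5 CPM (1.27 ± 0.31, adjusted p = 0.022, next to the COS12 increase in the same libraries). All 6 of these libraries were above the highest WT value. The H3K122Q call was lost without S61, without S62 and without any of WT S133, S81 and S82, and the H4R55A call without S125, without WT S81 and with the run as a covariate (adjusted p = 0.185).

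Further mutants had COS1 levels close to these without a call. H4K91Q averaged 15.9 ± 4.05 CPM (log2 fold change 1.23, adjusted p = 0.0642), H3K115Q 15.4 ± 4.11 CPM (1.16, adjusted p = 0.173) and H3K122A 14.3 ± 2.2 CPM (1.06, adjusted p = 0.104), with n = 3 each, against 6.84 ± 1.0 CPM in WT (SD, n = 4). In all 3 the libraries lay above WT. H3S86D was at the other end, with 4.48, 4.43 and 4.27 CPM, below every WT library, at a log2 fold change of -0.62 (adjusted p = 0.413). Across the ordered genotype means of COS1 no neighbours differed by more than the larger of their SDs.

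COS8 was the most abundant copy and moved little. Genotype means ranged over a ratio of 3.08. In H3T3D, COS8 had 13.5 and 15.6 CPM, against 38, 31.9, 25.8 and 27.6 CPM in WT. Both H3T3D libraries lay below every WT library, at a log2 fold change of -1.08 ± 0.32 (edgeR adjusted p = 0.0249). COS8 and COS12 were the 2 of the 5 tested copies called lower in H3T3D, where 3.28% of all genes were called lower. The call was lost without H3T3D S134, without H3T3D S135 and without WT S133. H3K4Q, with 19.0, 14.2 and 16.6 CPM, and H3K37R, with 22.2, 16.3 and 15.4 CPM, were also below all of WT but were not called (log2 fold changes -0.87 and -0.77, adjusted p = 0.134 and 0.238). H4R55A averaged 44.8 ± 8.0 CPM and H3R40K 44 ± 5.45 CPM (SD, n = 3 each), the highest means, neither called against the 30.8 CPM of WT.

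COS6 was the steadiest of the 5. Genotype means ran from 16.9 CPM in H3T3A to 35.3 CPM in H3K121Q, a ratio of 2.09, with WT at 25.3, 26.5, 30.3 and 24.1 CPM. It was not called in any mutant by edgeR or DESeq2. An unadjusted edgeR p under 0.05 was reached in 2 of 29 mutants, against 11.5% of all pairs. In 7 mutants, 24.1%, every COS6 library lay below every WT library, against 9.87% of pairs without overlap over all genes. In no mutant did all libraries lie above WT. The test of any difference among genotypes did not pass (edgeR adjusted p = 0.126, rank 3971 of 5822). H3K121Q, where COS12 fell, had 57.4, 36.3 and 12.1 CPM of COS6 in S79, S80 and S110. The 2 libraries without COS12 counts were those with the most COS6, and the third was below all of WT.

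COS10 had few counts, and its groups mostly overlapped WT. H3K18A was highest, with 13.4, 9.3 and 11.2 CPM, against 1.41, 8.15, 1.01 and 4.51 CPM in WT. All 3 H3K18A libraries were above WT, which was itself widely spread, at a log2 fold change of 1.65 ± 0.49 that was not called (edgeR adjusted p = 0.236). With the run of libraries as a covariate it was 2.68 and was called (adjusted p = 0.0409). H4R55A had 9.73, 15.2 and 4.24 CPM (1.45, adjusted p = 0.102). At the low end H3T3A had 1.15 and 0.0 CPM and H3T3D 0.499 and 1.2 CPM. Their ratios of pooled levels over WT were 0.198 (counting interval 0.0228 to 0.791) for H3T3A and 0.238 (0.0461 to 0.777) for H3T3D, and neither was called (adjusted p = 0.222 and 0.129). These intervals leave out the spread between libraries, which was wide in WT. COS10 was called in no mutant by edgeR or DESeq2. Its unadjusted edgeR p was under 0.05 in 5 of 29 mutants, against 11.5% of all pairs. COS10 passed the edgeR test of any difference (adjusted p = 0.000144), as did COS1 (4.63e-05), COS8 (6.12e-05) and 52.7% of all genes. The 11 libraries through which COS10 entered the test include those of H3K18A. Neither this result nor the H3K18A call with the covariate is therefore independent of the filter. The ranks were 555 for COS10, 411 for COS1 and 452 for COS8, of 5822 genes.

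**Figure D4:**
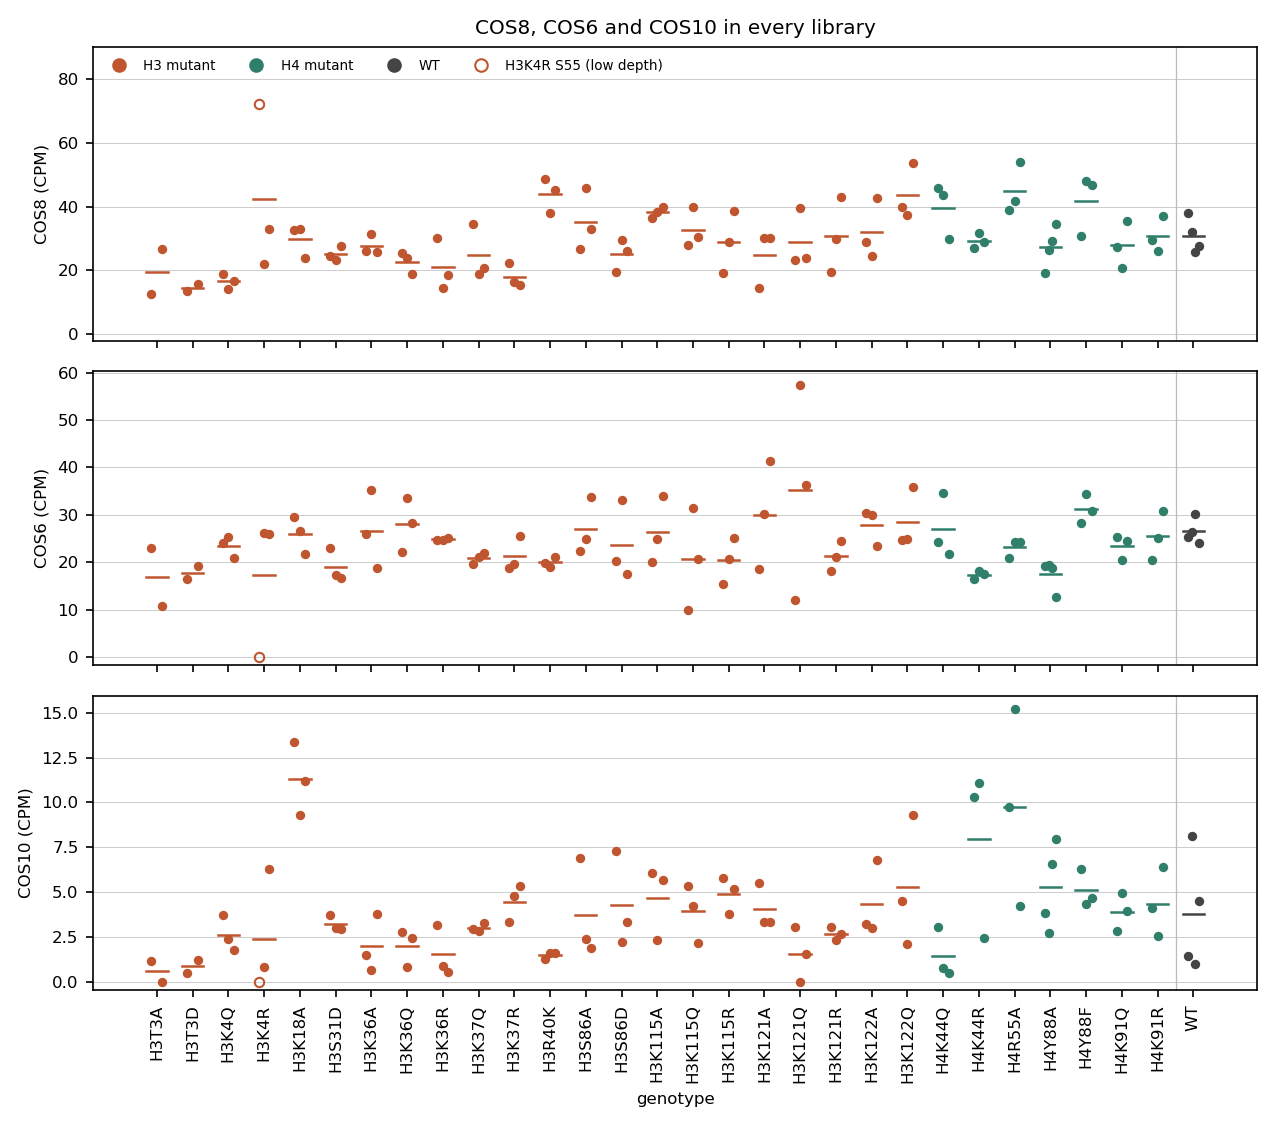
CPM of COS8, COS6 and COS10 in every library of the 29 mutants and, at the right, of WT. Bars are genotype means, and the open circle is H3K4R S55. COS8 in H3T3D (13.5 and 15.6 CPM) lies below the 4 WT libraries, COS6 varies little between genotypes, and COS10 in H3K18A (9.3 to 13.4 CPM) lies above WT.

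The sum of the 10 copies was dominated by COS8 and COS6 and is given as a description only. It was lowest in H3T3D, at 42.7 ± 3.99 CPM (SD, n = 2), and in H3T3A, at 46.4 ± 0.926 CPM (n = 2). It was highest in H4R55A, at 1.61 times the mean of WT, and in H3K122Q, at 1.43 times, with WT at 79.5 ± 8.57 CPM (n = 4). In H4R55A, 4 of the 5 tested copies had a fold change above 1, while COS6 did not (log2 fold change -0.19). In H3T3D, 4 of the 5 were below 1, while COS1 was not (0.26). H3K36Q and H3K121Q, in which COS12 fell, had sums of 65.4 ± 3.78 and 80.2 ± 30.0 CPM (n = 3 each).

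The substitutions of a residue were then compared with each other, 17 pairs in all. COS genes were called in 2 pairs, both times COS12, where 0.694% of all pairs of a gene and a comparison were called. H3K121Q, with 0.0, 0.0 and 5.05 CPM, was lower than H3K121R, with 10.9, 17.2 and 12.6 CPM. The log2 difference was -3.06 ± 0.62 (edgeR adjusted p = 0.00107, with 2.44% of all genes called lower in this pair), and the call remained without each library in turn. H4Y88A, with 14.1, 11.8, 20.4 and 21.9 CPM, was higher than H4Y88F, with 6.31, 5.02 and 4.67 CPM. Its log2 difference was 1.65 ± 0.45 (adjusted p = 0.0412, with 0.653% of all genes called higher in this pair). That call was lost in 6 of the 7 fits that each left out 1 library, although the libraries of the genotypes did not overlap.

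Other pairs differed in level without a call. H4K44Q had more COS1 than H4K44R, 18 ± 1.02 CPM against 9.2 ± 1.18 CPM, and less COS10, 1.42 ± 1.42 CPM against 7.96 ± 4.82 CPM (SD, n = 3 each). The edgeR log2 differences were 0.96 (adjusted p = 0.488) and -2.56 (adjusted p = 0.184). H4Y88A had less COS6 than H4Y88F, 17.5 ± 3.32 CPM (n = 4) against 31.2 ± 3.04 CPM (n = 3), a log2 difference of -0.84 (adjusted p = 0.108) in the opposite direction to COS12. With the run of libraries as a covariate this difference was -0.89 and was called (adjusted p = 0.0433). H3K36Q had less COS12 than H3K36R on average, at a log2 difference of -1.79 that was not called (adjusted p = 1.0).

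WT was also set against the mean of all 29 mutants. None of the 5 copies was called in edgeR or in DESeq2, where 0.137% of all genes were called in edgeR. In edgeR, COS1 was higher in the mutants on average, by 0.58 on the log2 scale (unadjusted p = 0.0117, adjusted p = 0.585). COS12 was lower, at -0.64 (unadjusted p = 0.016, adjusted p = 0.643). The other 3 copies had unadjusted p above 0.05.

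COS12 and COS1 were then set side by side in strains with a mutated H3 and strains with a mutated H4. This split was chosen after the same levels had been seen, so the p-values that follow describe it and are not an independent test. None of the 7 H4 strains is mutated in the H4 tail, whereas the H3 strains mix tail and core. The histone mutated and the position in the nucleosome therefore cannot be told apart. Core H3 strains lay at both ends for COS12, with H3K121Q at 1.68 CPM and H3K122Q at 16.8 CPM. The 22 H3 strains had a median COS12 mean of 6.4 CPM (0.799 to 18.1 CPM), the 7 H4 strains one of 14.9 CPM (5.34 to 30.7 CPM), and WT had 10.7 CPM. COS12 means lay below WT in 17 of the 22 H3 strains and in 3 of the 7 H4 strains. The 18.1 CPM belong to H3K4R and rest on 1 count in S55, without which the highest H3 strain was H3K122Q at 16.8 CPM. For COS1 the median was 9.5 CPM in H3 strains (4.39 to 16.5 CPM) and 12.1 CPM in H4 strains (9.2 to 18 CPM), with WT at 6.84 CPM. The groups overlapped for every copy.

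In edgeR the mean of the H3 coefficients was below that of the H4 coefficients by a log2 difference of -1.15 ± 0.14 for COS12 (adjusted p = 3.34e-08), -0.48 ± 0.10 for COS1 (adjusted p = 0.00238) and -0.33 ± 0.09 for COS8 (adjusted p = 0.0145). These are 3 of the 5 copies, against 2.16% of all genes called lower, and the error in this fit is the spread between libraries and not between strains. An exact two-sided permutation of the histone over the 29 strain means of log2 CPM gave a difference of -0.99 for COS12 (p = 0.0119) and -0.46 for COS1 (p = 0.0237), without adjustment for the 5 copies compared. For COS8 (exact p = 0.0772), COS10 (exact p = 0.075) and COS6 (exact p = 0.729) this test did not pass. Within the runs of libraries the COS12 difference had the same sign, at -0.78 in the first (exact p = 0.0946), -0.5 in the second (exact p = 0.223) and -1.86 in the third (exact p = 0.0278, the smallest that 7 against 2 strains allow). For COS1 the values were -0.33 (exact p = 0.275), -0.43 (exact p = 0.0644) and -0.61 (exact p = 0.0833). The first and second runs hold the same 15 H3 and 6 H4 mutants, so equal signs there are not separate support. The 2 H4 strains of the third run are H4R55A, with the highest COS12 mean of all genotypes, and H4Y88A through S132 alone. As the split was chosen with these levels known, the third run is not separate support either. Substitutions of the same residue were permuted as separate strains.

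**Figure D5:**
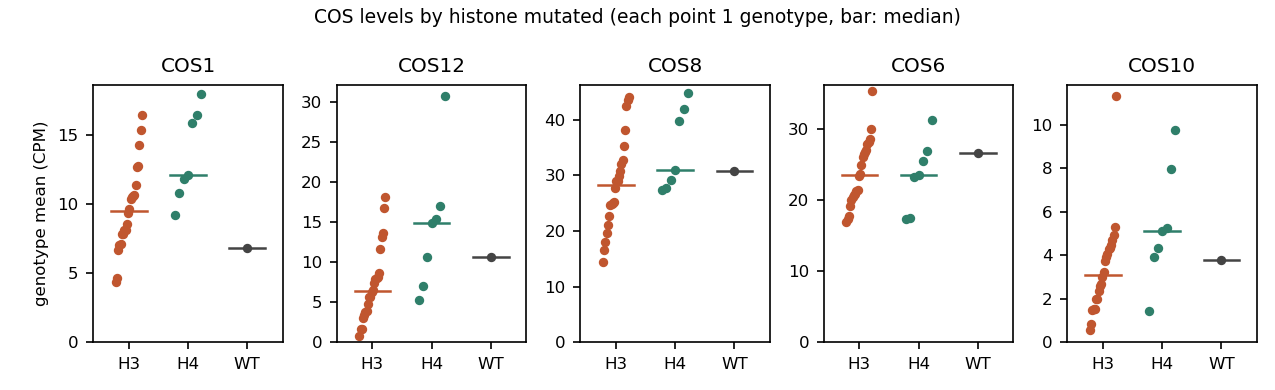
Mean CPM of each genotype for the 5 tested COS genes, with H3 mutants (22 points), H4 mutants (7 points) and WT (1 point). The bar is the median, which for COS12 is 6.4 CPM in H3 mutants and 14.9 CPM in H4 mutants, with WT at 10.7 CPM.

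Tested genes near the COS copies gave no call in the mutants that changed the copy. With 1.4% of all pairs of a gene and a mutant called, none would be usual in so few pairs. For COS12, the nearest tested genes within 20 kb of the end were MNT2, a mannosyltransferase, and ADH4, an alcohol dehydrogenase. Their starts lie 9.69 and 12.4 kb from that of COS12, with untested genes between. Neither was called in any of the 6 mutants that changed COS12 (0 of 12 pairs in edgeR). MNT2 in H3T3D was the 1 pair with an unadjusted p under 0.05, at a log2 fold change of -0.51 (adjusted p = 0.136). AAD14, RPD3, a histone deacetylase, and PEX6, a peroxisomal protein, start 7.79, 9.67 and 11.2 kb from COS1 and gave 0 calls of 9. The nearest, AAD14, an aryl-alcohol dehydrogenase homolog, accounted for the 2 of these with an unadjusted p under 0.05, both in the direction of COS1, at log2 fold changes of 1.02 in H4K44Q (adjusted p = 0.0868) and 0.88 in H4R55A (adjusted p = 0.0961). Within 12.7 kb of COS8, the siderophore transporters ARN1 and ARN2 and the genes PXP3 and DFP4 gave 0 of 4 in H3T3D, also before adjustment. Of the 94 tested genes within 20 kb of a chromosome end that are not COS genes, out of 253 annotated, 45 of 2726 pairs of a gene and a mutant were called, 1.65%, near the 1.4% of all genes. Right arms were measured from the end of their last annotated gene. Those called most firmly in the same mutants were DLD3 in H3R40K (log2 fold change -2.15), FDC1 in H3K122Q (-1.23), and GTT1 (1.53) and MSC1 (2.2) in H3T3D, which are singled out by their adjusted p of 0.00013, 0.00038, 0.000583 and 0.000848.

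Factors of telomeric silencing were read in the same libraries, with 18 of 19 listed genes tested. Over the 29 mutants 1.53% of their pairs were called, near the 1.4% of all genes. In the 8 mutants with a COS call the median log2 fold change of the list lay between -0.16 and 0.16, beside -0.04 to 0.01 for all genes. SIR3, a structural component of silent chromatin, was higher in H3T3D (143 ± 6.98 CPM, n = 2, against 70.8 ± 17.3 CPM in WT, n = 4, adjusted p = 0.00927) and in H3S31D (log2 fold change 0.74, adjusted p = 0.0491). SIR2, the NAD-dependent deacetylase of silent chromatin, was higher in H4R55A (56.7 ± 7.1 CPM, n = 3, against 30.9 ± 2.23 CPM in WT, n = 4, adjusted p = 0.0163). NPT1, which makes the precursor of NAD by salvage, was lower in H3T3D (74.7 ± 15.0 CPM against 176 ± 41.7 CPM, adjusted p = 0.00162). YKU70, a telomere end-binding protein, was higher in H3S31D (log2 fold change 0.91, adjusted p = 0.0464). Their part in the COS levels was not tested.

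Genes of the multivesicular-body pathway, in which Cos proteins act, were read as well. All 26 listed genes were tested, and 1.06% of their pairs with the 29 mutants were called, near the 1.4% of all genes. In the mutants with a COS call, VPS25, an ESCRT-II subunit, was lower in H3T3D (6.99 ± 1.41 CPM, n = 2, against 17.3 ± 2.44 CPM in WT, n = 4, adjusted p = 0.0187), DID4, an ESCRT-III subunit, was higher in H3T3D (log2 fold change 0.58, adjusted p = 0.0423), and EAR1, an adaptor of the ubiquitin ligase Rsp5, was higher in H3K122Q (0.97, adjusted p = 0.0404). The DUP240 genes, a related family of membrane proteins, had 6 of 10 members tested and 1 call over the 29 mutants, 0.575% of 174 pairs. Their unadjusted edgeR p was under 0.05 in 32 of these pairs, 18.4%, against 11.5% of all pairs. Of 24 seripauperin (PAU) genes, another subtelomeric family of closely similar copies, 2 had enough counts to be tested and neither was called. For these, 3 of 58 pairs, 5.17%, had an unadjusted edgeR p under 0.05, against the same 11.5%.

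The copies followed each other only in part across the 30 genotype means of log2 CPM. Pearson's r was 0.59 between COS10 and COS12, 0.53 between COS8 and COS12 and 0.47 between COS1 and COS6, and it was -0.09 between COS6 and COS12. These are descriptions over 30 means that share libraries and depth. The H3K4R mean includes S55, with 0 counts of COS1, COS6 and COS10, 1 of COS12 and 2 of COS8. That library can move the r values, which were not computed without it. The genes whose means were most like the summed COS level were YCR090C (r = 0.77), FOL3 (0.74), URA4 (0.72), CHA1 (0.70) and CNE1 (0.67). COS9, a relative on chromosome XI outside the set, ranged from a mean of 6.44 CPM in H3T3D to 33.1 CPM in H3K121R, with 15.8 CPM in WT.

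In the authors' deposited table of log2 fold changes over WT, COS12 ran from -1.53 to 1.23 over the 29 mutants and COS1 from -0.29 to 0.89. In the authors' deposited table COS8 ran from -0.86 to 0.48, COS6 from -0.49 to 0.31 and COS10 from -0.35 to 1.16. How these values were averaged or scaled is not given in the sources used here, and they are narrower than those fitted here.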

How the data were processed

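RNA was extracted with hot acidic phenol and made into QuantSeq 3′ libraries, per the labels' protocols. Deposited by the authors were unnormalized counts per gene and library, and a second sheet of log2 fold changes over WT. TopHat, HTSeq, featureCounts 1.5.3 and the genome sacCer3 are named per the submitters' processing notes, without their roles. The strand setting and the treatment of reads that fit several genes are not given in the sources used here. The table held 7122 genes, of which 6045 matched RefSeq, and 5 summary lines, which were left out. Columns carry a genotype and a sample number, so libraries were assigned to groups only. Any 2 libraries of a genotype differed by more than sampling noise (chi-square at least 2.09 times its degrees of freedom). The 14 ATAC-seq samples were not analysed here.

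edgeR 4.0.16 in R 4.3.3 was used with TMM scaling, filterByExpr (5822 genes) and a quasi-likelihood fit of 1 coefficient per genotype (60 residual degrees of freedom, common dispersion 0.0543). SEs are approximate, from the fold change and its F value. CPM use TMM-scaled totals, and log2 levels a prior count of 2. The pipeline was tested on simulated data. The members, gene lists and comparisons were chosen with earlier results of these data known. Named were all members, the 5 genes most like their sum and up to 4 called genes of each list with the smallest adjusted p. Alternatives were RLE scaling, DESeq2 1.42.0, no filter, the run of sample numbers as covariate, only the libraries compared, a minimum log2 fold change of 1 and each library left out in turn (for each, the comparisons that include its genotype were refitted).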

Additional observations from a re-analysis of the deposited data

Results flagged for a closer look

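COS6 in H4Y88A had 12.6 CPM in S48, against 19.2, 19.5 and 18.9 CPM in the other 3 libraries of that mutant. The gap from S48 to the next library was 0.916 of the whole range of the 4 libraries, which set it apart from them. The rule applies to the genotypes with 4 libraries, H4Y88A and WT, for each of the 5 tested copies, and chance alone gives such gaps now and then. COS12 and COS10 in the same library were the highest of the 4, at 21.9 and 7.95 CPM.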

How the results depend on the processing

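No paired analysis was possible because the columns of the count table carry no replicate numbers. The 10 calls against WT were 10 with RLE scaling, DESeq2, no filter or a minimum log2 fold change of 1. With the run of sample numbers as a covariate there were 9, but these were not all the same calls. Those of COS12 in H3S31D, H3R40K and H4R55A and of COS1 in H4R55A were lost, and others, named below, were gained. The covariate also gave 3 calls between substitutions. Calls against WT were 3 when each fit held only the mutant and WT, and the 2 calls between substitutions were then 0. Leaving out each library in turn gave 7 to 11 calls against WT, 1 to 3 calls between substitutions, 4 to 5 copies with any difference among genotypes and 3 to 4 copies with a difference between H3 and H4 strains. None of the called fold changes turned its direction, which was not checked for those without a call. A further call between substitutions was COS6 in H3K121Q against H3K121R without S110 (1.13, adjusted p = 0.0184), and COS10 joined the H3 and H4 difference without any of 5 libraries (adjusted p = 0.0351 to 0.0481, against 0.0801 with all). With the covariate, calls were gained for COS6 in H4Y88A against H4Y88F (-0.89, adjusted p = 0.0433) and, against WT, for COS10 in H3K18A, COS12 in H3K36A (log2 fold change -1.54, adjusted p = 0.0325) and COS1 in H4K91Q (1.29, adjusted p = 0.0333). Counts under 10 in a library, as for COS10 and for COS12 in low mutants, limit what can be told apart, and reads shared between copies were not recovered.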
